A study of Homo sapiens with 6 samples.

Results

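The genes described here are 10 regulators and core parts of mTORC1, the growth-controlling kinase complex: DDIT4 (also called REDD1), the sestrins SESN1, SESN2 and SESN3, the small GTPases RHEB and RHEBL1, the TSC complex genes TSC1 and TSC2, the kinase gene MTOR and the scaffold gene RPTOR. They were listed by name, and they are 10 of the 18132 genes that the array measured through probe sets with a single gene symbol. Where a gene had several probe sets, the one described first was chosen by its mean log2 signal over all 6 arrays, the brightest being taken. That choice used the mean level and not the difference between the groups. The list itself was drawn up with earlier results of these data known, including the large differences of RHEBL1 and DDIT4, so the p-values of those genes give no independent support.

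Gene expression was measured on Affymetrix arrays in TE-1, a human cell line from a squamous cell carcinoma of the oesophagus. The tested cells were TE-1 with a stable knockdown of EIF3C, a subunit gene of the translation initiation factor eIF3, and the controls were parental TE-1 cells, with 3 arrays in each group. All the cells were grown in the same medium with foetal bovine serum. Per the labels the knockdown cells were a clone and no second clone or control construct is described. The labels call the replicates biological but do not say that they came from separate cultures, so the p-values cover the spread among these 6 samples alone, and that spread may be technical. Differences of the clone from its parental line that precede the knockdown cannot be told apart from effects of the knockdown.

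As background, mTORC1 sits on the lysosome and promotes protein synthesis when amino acids and growth signals are present. Amino acids act through the Rag GTPases, which bring the complex to the lysosome, and sestrins restrain this branch by binding GATOR2 when leucine is scarce. Growth signals act through RHEB, which switches the kinase on, while the TSC complex turns RHEB off and DDIT4, a stress-induced protein, restrains mTORC1 through the TSC complex. The arrays measured transcripts only, and neither protein levels nor kinase activity were recorded.

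The arrays were similar in scale, with median log2 signals of 6.09 to 6.11. EIF3C was lower in the knockdown cells on all 5 of its probe sets, which are shared with its near-identical copy EIF3CL, and on the brightest of them 22.1% of the control signal was left. Of 7 epithelial and squamous markers measured, 4 (CDH1, EPCAM, DSP and ITGB4) lay above the median of the tested genes in both groups, whereas the squamous markers KRT5, KRT14 and SOX2 lay below it. None of 13 fibroblast, leukocyte and endothelial markers lay above that median. The 85 non-human control probe sets, which should not respond to the cells, differed between knockdown and control by -0.22 to 0.20 on the log2 scale. Differences of that size or smaller lie within the range of these controls, for any gene named below.

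In the knockdown cells RHEBL1 and MTOR transcripts were higher, and DDIT4, SESN2, TSC1, RPTOR and SESN1 transcripts were lower. RHEB was also called lower, but by an amount inside the range of the non-human control probe sets. Of the 10 genes, 9 passed the filter on dim genes and were tested, SESN3 being too dim. By limma with Benjamini-Hochberg adjustment over all 13599 genes tested, at an adjusted p of 0.05, 2 of the 9 rose, 6 fell and TSC2 did not pass. Across all tested genes 66.5% passed, 32.4% higher and 34.1% lower, so a call by itself sets no member apart from the other genes. The share that passed and changed at least 2-fold was 4.82% over all genes, and 3 of the 9 members, RHEBL1, DDIT4 and SESN2, were among them. The groups did not overlap for 8 of the 9 members, against 70.3% of all tested genes. The median log2 difference of the 9 was -0.24, against -0.03 for all tested genes, and the median absolute difference was 0.68, against 0.23. Because the list was drawn up with the large differences of RHEBL1 and DDIT4 known, these shares and medians give no independent support either.

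**Figure D1:**
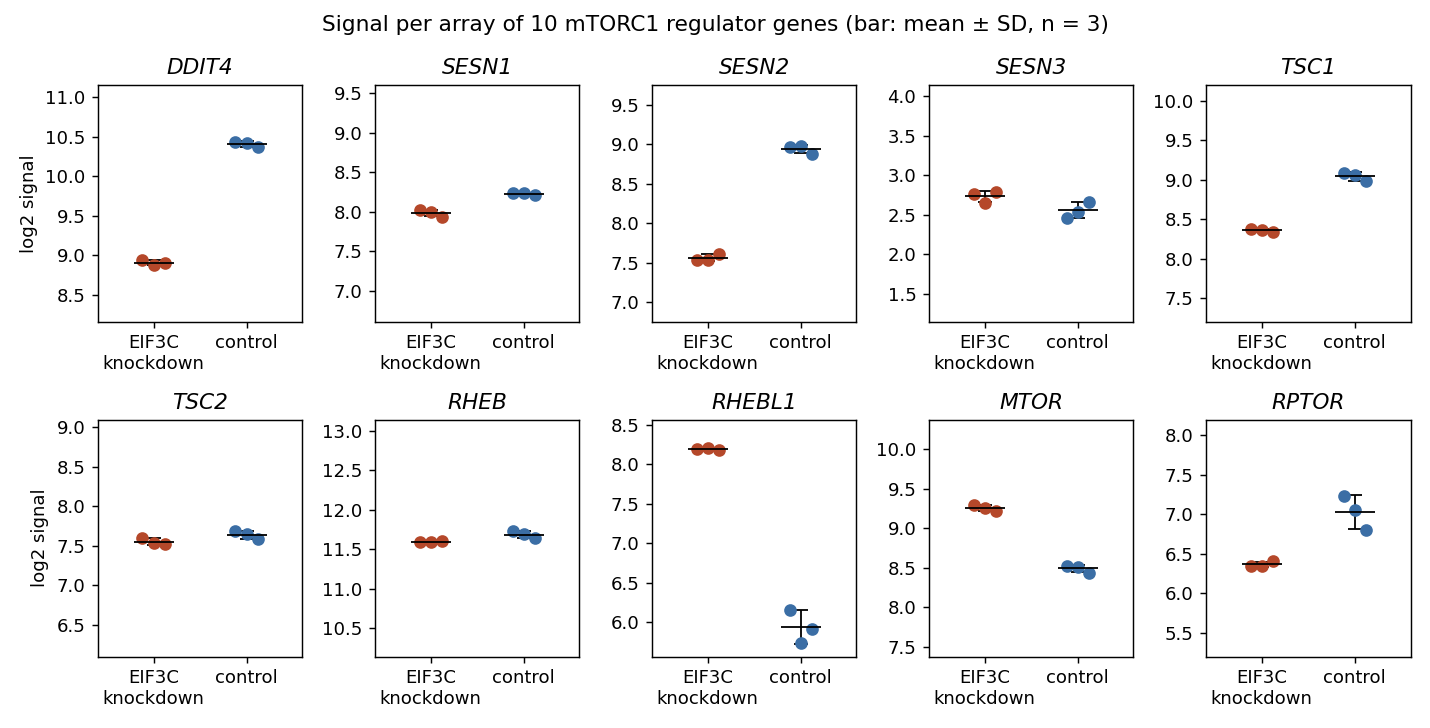
Log2 signal of the 10 genes on each array, with the 3 knockdown arrays left of the 3 control arrays in every panel; the bars show mean ± SD and every panel spans 3 log2 units. DDIT4, SESN2 and TSC1 sit lower and MTOR and RHEBL1 higher in the knockdown arrays, RHEBL1 at 8.18 to 8.20 against 5.73 to 6.16 in control, while TSC2 and SESN3 overlap between the groups.

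DDIT4 had the largest fall of the 10 genes. Its log2 signal was 8.94, 8.87 and 8.91 in the knockdown arrays, against 10.44, 10.42 and 10.37 in the control arrays. All 3 knockdown values lay well below the control values, and the values within each group were close together. The log2 difference was -1.50 (SE 0.03, 95% interval -1.57 to -1.43), which left 35.3% of the control signal (adjusted p = 5.21e-16). Of the 13599 tested genes 63 fell by more. DDIT4 was read by 1 probe set, so no second probe set of the gene could be set beside it.

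Of the sestrins, SESN2 and SESN1 fell by different amounts and SESN3 was too dim to test. SESN2, whose protein binds leucine and whose gene is a known ATF4 target, had log2 signals of 7.53, 7.54 and 7.61 in knockdown, against 8.96, 8.98 and 8.88 in control. The groups were clearly apart, with a difference of -1.38 (SE 0.04, adjusted p = 5.94e-14) and 38.4% of the control signal left. The second SESN2 probe set was lower by a similar amount, with a log2 difference of -1.24, so both probe sets of the gene were called.

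SESN1, known as a p53 target, had log2 signals of 8.02, 8.00 and 7.94 in knockdown and 8.23, 8.23 and 8.21 in control. The groups did not overlap but lay close together, at a difference of -0.24 (SE 0.04, adjusted p = 9.83e-05), just outside the range of the non-human control probe sets. Its second probe set stood at -0.13 and was not called (adjusted p = 0.0606 over all probe sets). SESN3, known as a FOXO target, was dim on both of its probe sets, with signals of 2.76, 2.65 and 2.79 in knockdown and 2.46, 2.54 and 2.66 in control on the brighter one. These lie below 4.635, the lowest mean kept for testing, the groups overlap, and no fold is given.

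Differences between related genes were compared within each array. The change of SESN1 minus that of SESN2 was 1.14 on the log2 scale (SE 0.05), larger than the spread between replicates, with no overlap between the groups. With 3 arrays against 3, the exact two-sided permutation test cannot go below p = 0.1, and it gave 0.1 for each of 6 pairs compared, also after adjustment over the 6. No size is given for the 2 pairs with SESN3, whose signal was too dim.

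The upstream sequences of DDIT4 and SESN2 are shown because these were the members that fell at least 2-fold. Each is the 250 bases before the annotated transcription start on the plus strand, from RefSeq on GRCh38.p14, at chr10:72273674-72273923 for DDIT4 and chr1:28259268-28259517 for SESN2. Capitals mark ACGTG, the core of the hypoxia response element, and the CCAAT box, here in its reverse form ATTGG, both searched on both strands.
DDIT4: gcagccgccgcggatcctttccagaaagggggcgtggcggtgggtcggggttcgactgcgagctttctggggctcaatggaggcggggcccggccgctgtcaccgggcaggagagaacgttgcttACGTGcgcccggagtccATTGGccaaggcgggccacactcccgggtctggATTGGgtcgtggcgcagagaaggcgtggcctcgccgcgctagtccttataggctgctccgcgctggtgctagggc
SESN2: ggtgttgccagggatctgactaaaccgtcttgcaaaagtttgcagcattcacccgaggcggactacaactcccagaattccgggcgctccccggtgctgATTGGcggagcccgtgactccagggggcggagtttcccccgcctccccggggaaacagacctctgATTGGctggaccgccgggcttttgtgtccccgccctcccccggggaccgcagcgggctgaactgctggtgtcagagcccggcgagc

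Each of the 2 windows held 2 CCAAT boxes, at 108 and 75 bases before the start in DDIT4 and at 151 and 86 bases before it in SESN2, counted to the first base of the box. CCAAT was found in 32.0% of 35116 promoter windows of this length, and in windows of MTOR, RHEB and SESN1 as well. DDIT4 held 1 ACGTG, at 125 bases before the start, a string present in 18.5% of windows, and SESN2 held none. Neither window held TGATGNAA, a form of the element bound by ATF4 with C/EBP partners (3.14% of windows), the E-box CACGTG (6.34%), which contains ACGTG, or the FOXO string GTAAACA (2.98%). Among the 12 windows of 9 members in the table, TGATGNAA occurred in 1, a window of TSC2, at 110 bases before the start, where it overlaps an E-box that begins at 114. RHEBL1 had no entry. Sequence outside these windows was not searched, so a string absent from a window may lie elsewhere in or near the gene. The CCAAT box was added to the search after the sequences had been seen, and these matches describe letters and not binding.

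**Figure D2:**
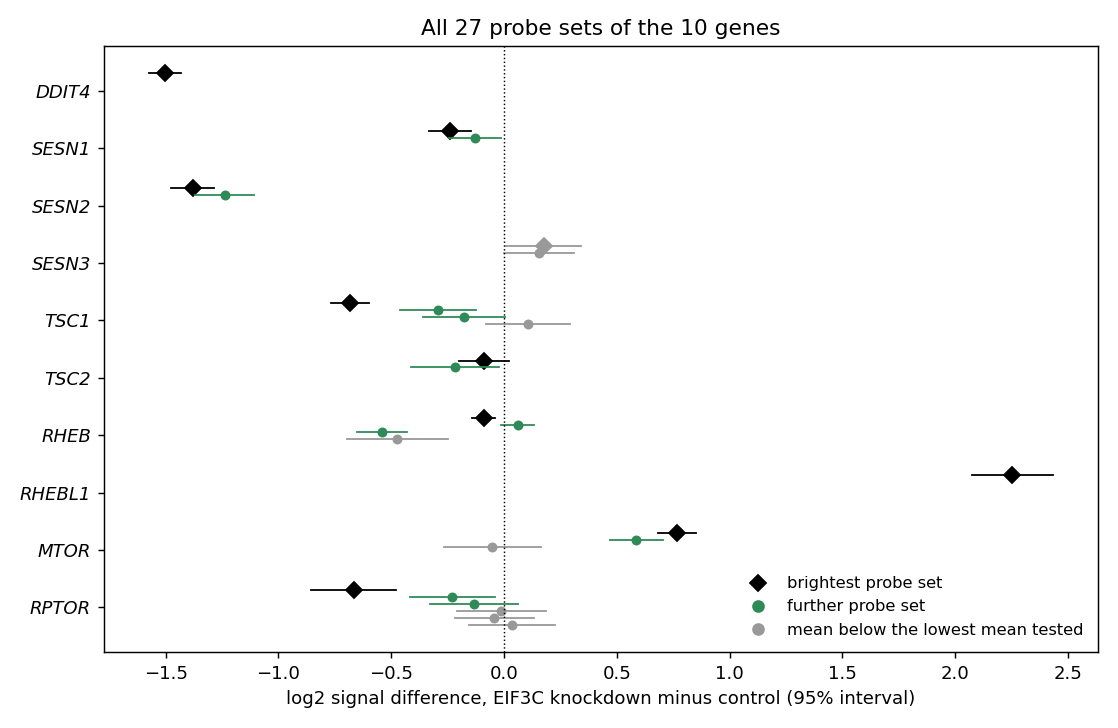
Log2 difference, knockdown minus control, with its 95% interval for all 27 probe sets of the 10 genes; diamonds are the brightest probe set of each gene, grey marks probe sets whose mean lay below 4.635. DDIT4 and SESN2 sit furthest left, at -1.50 and -1.38, RHEBL1 furthest right at 2.25, and the probe sets of RHEB, TSC1, MTOR and RPTOR differ in size.

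Of the TSC complex, the scaffold subunit gene TSC1 fell and the GTPase-activating subunit gene TSC2 did not pass. TSC1 had log2 signals of 8.38, 8.37 and 8.34 in knockdown and 9.08, 9.07 and 8.98 in control. The groups did not overlap, with a difference of -0.68 (SE 0.04, adjusted p = 9.09e-11) and 62.3% of the control signal left. Its other 3 probe sets showed less: 1 was called lower at -0.29, and those at -0.18 and 0.11 were not called, the last of them dim. With the mean of its 4 probe sets the TSC1 difference was -0.26.

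TSC2 had log2 signals of 7.60, 7.54 and 7.52 in knockdown and 7.69, 7.64 and 7.59 in control. The groups overlap, and the difference of -0.09 (95% interval -0.19 to 0.02, adjusted p = 0.134) lies inside the range of the non-human control probe sets. The second, dimmer probe set stood at -0.22 and was not called, but TSC2 passed at -0.12 with quantile normalization (adjusted p = 0.0355) and at -0.15 with the mean of both probe sets (adjusted p = 0.0206). TSC2 overlaps PKD1 in the RefSeq gene table, which had a log2 difference of -0.27. Within arrays TSC1 minus TSC2 was -0.59 (SE 0.02) on the brightest probe sets, larger than the spread between replicates, but -0.11 with the mean of each gene's probe sets.

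The RHEB paralogues went apart. RHEBL1, the less studied relative of RHEB, which can also activate mTOR signalling when overexpressed, had log2 signals of 8.20, 8.20 and 8.18 in knockdown and 6.16, 5.73 and 5.92 in control. Every knockdown value lay above every control value, and the control arrays varied more (SD 0.21) than the knockdown arrays (SD 0.01). The difference was 2.25 (SE 0.08, 95% interval 2.08 to 2.43), a 4.77-fold rise (adjusted p = 2.55e-13), and 13 of the 13599 tested genes rose by more. RHEBL1 was read by 1 probe set. Its nearest neighbouring protein-coding gene that was tested, KMT2D, differed by -0.33 (adjusted p = 0.00443).

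RHEB itself, the GTPase that directly activates the kinase, had log2 signals of 11.59, 11.60 and 11.60 in knockdown and 11.73, 11.69 and 11.64 in control. The groups did not overlap, yet the difference of -0.09 (SE 0.02, adjusted p = 0.0024) lies inside the range of the non-human control probe sets. The 4 probe sets of RHEB disagreed: the second brightest stood at 0.06 and was not called, and of the others 1 was called lower at -0.54 and 1, whose mean lay below 4.635, at -0.47. With probe sets of the kinds that can match several transcripts or genes left out, RHEB was represented by the probe set at -0.54, and without the intensity trend the call on the brightest was lost (adjusted p = 0.0599). RHEBL1 minus RHEB was 2.34 within arrays (SE 0.11), larger than the spread between replicates.

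MTOR and RPTOR, which encode the kinase and the subunit that recruits its substrates, changed in opposite directions. MTOR had log2 signals of 9.30, 9.26 and 9.22 in knockdown and 8.52, 8.51 and 8.44 in control. The knockdown values were all higher, by 0.77 on average (SE 0.04, adjusted p = 1.41e-11), a 1.70-fold rise. Another probe set rose by 0.59, the remaining dim one stood at -0.05 and was not called, and with the mean of all 3 the rise was 0.43.

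RPTOR had log2 signals of 6.35, 6.34 and 6.41 in knockdown and 7.23, 7.06 and 6.81 in control. The control arrays spread widely (SD 0.21) but none reached the knockdown values, and the difference was -0.67 (SE 0.09, adjusted p = 2.35e-06), with 63.0% of the control signal left. Of its 6 probe sets 2 were called lower, the second at -0.23, and 4 were not called, 3 of them dim. With the mean of all 6 the difference was -0.17, inside the range of the non-human control probe sets. MTOR minus RPTOR was 1.43 within arrays (SE 0.11), larger than the spread between replicates, and 0.61 with the mean of each gene's probe sets.

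**Figure D3:**
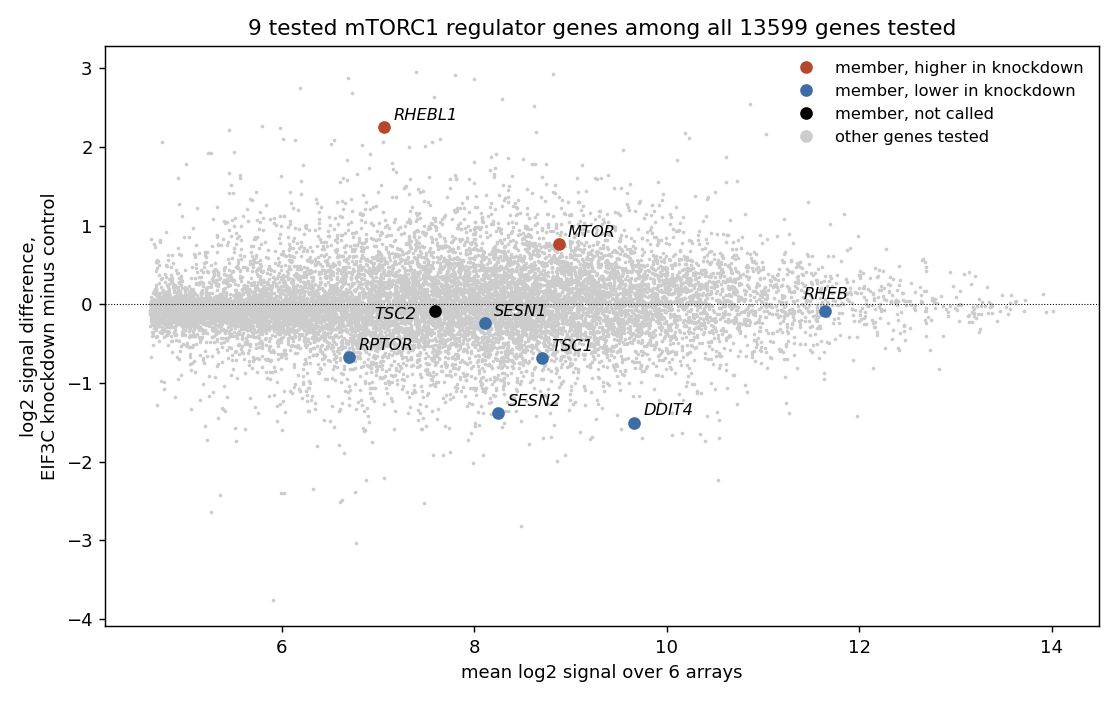
Log2 difference, knockdown minus control, against mean log2 signal over 6 arrays for the 13599 genes tested (grey) and the 9 tested members. RHEBL1 lies at the upper edge of the cloud at 2.25 and DDIT4 and SESN2 at its lower edge at -1.50 and -1.38, whereas TSC2 and RHEB lie within it at -0.09.

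The genes whose pattern over the 6 arrays was most like that of RHEBL1 were PTX3, FOSL1 and ARL6, with root mean square differences of the mean-centred log2 signal of 0.08, 0.08 and 0.11. Those most like DDIT4 were PRKCH, CTNNBIP1 and TCTN3, at 0.03, 0.04 and 0.04. With 2 groups of 3 arrays this likeness reflects the size of the group difference, which was 2.22, 2.19 and 2.04 for the first 3 genes and -1.46, -1.53 and -1.46 for the others.

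Around the members, genes of the wider pathway moved in both directions. The 10 lists compared held pathway genes, and also factors known to induce DDIT4 or sestrins and targets of ATF4, p53 and FOXO. Of their 111 tested genes, 36 rose, 53 fell and 22 did not pass, with a median log2 difference of -0.11. These counts, and those of the lists that follow, stand beside 32.4% higher and 34.1% lower over all tested genes. The lists were made with earlier results of these data known, so these comparisons give no independent support. Among the GATOR complexes, in which GATOR1 switches the Rag GTPases off and GATOR2 opposes it, 3 of 8 rose and 3 fell (median -0.03). The GATOR2 subunit gene SEH1L (log2 difference -0.53) and the GATOR1 gene NPRL2 (-0.23) fell, and the GATOR2 gene SEC13 (0.21) and the GATOR1 gene NPRL3 (0.14) rose. The differences of SEC13 and NPRL3 were no larger than 0.22, the largest size among the non-human control probe sets. A further probe set of SEH1L was called higher at 0.37, and 3 of the 5 probe sets of NPRL3 were called lower.

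Of KICSTOR, which holds GATOR1 on the lysosome, and the nutrient sensors, 3 of 8 rose and 4 fell (median -0.03). The arginine sensor gene CASTOR1 (-0.61) and the KICSTOR gene KICS2 (-0.55) fell. SAMTOR, which encodes a sensor of S-adenosylmethionine, rose by 0.55 and the leucyl-tRNA synthetase gene LARS1 by 0.34, although 1 of 3 LARS1 probe sets was called lower. Of the Rag GTPases, their Ragulator anchor and the folliculin complex, 3 of 11 rose and 6 fell (median -0.12). The Ragulator gene LAMTOR4 rose by 0.90, and the folliculin partner gene FNIP2 (-0.86) and the Rag genes RRAGB (-0.69) and RRAGC (-0.56) fell.

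Other subunits of the mTOR complexes and TBC1D7, a further subunit of the TSC complex, gave 2 rises and 3 falls among 9 tested (median -0.06). RICTOR, which defines mTORC2 (-0.49), the assembly factor gene TTI1 (-0.32) and TBC1D7 (-0.22, inside the range of the non-human control probe sets) fell, and AKT1S1, which encodes the inhibitory subunit PRAS40, rose by 0.30. Of upstream kinases and phosphatases 9 of 18 rose and 5 fell (median 0.08). PRKAA2, a catalytic subunit gene of the energy sensor AMPK, rose by 2.10 on its brightest probe set and was called higher on all 4. PRKAG2, an AMPK regulatory subunit gene next to RHEB in the RefSeq gene table, rose by 0.71 and CAB39, a partner of the kinase LKB1, by 0.67, while the other LKB1 partner gene STRADA fell by 0.55 on the log2 scale.

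Of mTORC1 substrates and effectors 5 of 17 rose and 8 fell (median -0.03). The translation inhibitor gene PDCD4 (-1.35), the autophagy kinase gene ULK1 (-0.82), the 4E-binding protein gene EIF4EBP1 (-0.77) and LARP1, a regulator of ribosomal protein mRNAs (-0.49), fell. PDCD4 was called lower on all 4 of its probe sets, and EIF4EBP1 and LARP1 each on all 3. ULK1 was read by 1 probe set.

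The list of DDIT4 relatives, TXNIP and the factors known to induce DDIT4 or sestrins gave 3 rises and 6 falls among 14 tested (median -0.10). The 3 rises, of FOXO3 (0.16), NFE2L2 (0.12) and HIF1A (0.07), lay inside the range of the non-human control probe sets. The largest falls were those of TXNIP, a thioredoxin-binding protein known to bind DDIT4 (-0.94), the forkhead factor gene FOXO1 (-0.70, and -0.37 with the mean of its 4 probe sets), the hypoxia-inducible factor gene EPAS1 (-0.66) and the stress factor gene XBP1 (-0.46). Of other ATF4 targets, in a list chosen with earlier results known, 7 of 10 fell, beside 34.1% of all tested genes, and 3 rose. Their median of -0.65 compares with -1.50 for DDIT4 and -1.38 for SESN2. The asparagine synthetase gene ASNS (-1.70), the transcription factor gene CEBPG (-1.01), the glutathione-degrading enzyme gene CHAC1 (-0.86) and the lipoprotein receptor gene VLDLR (-0.82) fell, although 1 of the 2 CEBPG probe sets was not called and their mean gave -0.51. The 3 that rose were ATF3 (0.69), PPP1R15A (0.29) and SLC3A2 (0.24). The ATF4 transcript itself stood at -0.19, inside the range of the non-human control probe sets, and DDIT3 (-0.11) was not called.

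Of other p53 targets, in a list likewise chosen with earlier results known, 6 of 9 fell and 3 rose. Their median was -0.35, against -0.03 for all tested genes. The members SESN1, SESN2 and DDIT4 stood at -0.24, -1.38 and -1.50. The cyclin G1 gene CCNG1 (-2.81) and TP53INP1 (-1.56 on its brightest probe set, -0.24 on the other) fell, and the growth arrest gene GADD45A rose by 0.78 and the ribonucleotide reductase subunit gene RRM2B by 0.74. Of other FOXO targets 5 of 7 tested fell and 2 rose (median -0.32). PDK4 and TNFSF10 were too dim for this test, and without the filter on dim genes 3 were higher and 6 lower. The transcriptional coregulator gene CITED2 fell, with 49.9% of the control signal left on its brightest probe set and a log2 difference of -0.63 on the other. The repressor gene BCL6 (-0.66) and the cyclin G2 gene CCNG2 (-0.61, called lower on 3 of its 5 probe sets) also fell, and the transcription factor gene KLF6 rose by 0.95.

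**Figure D4:**
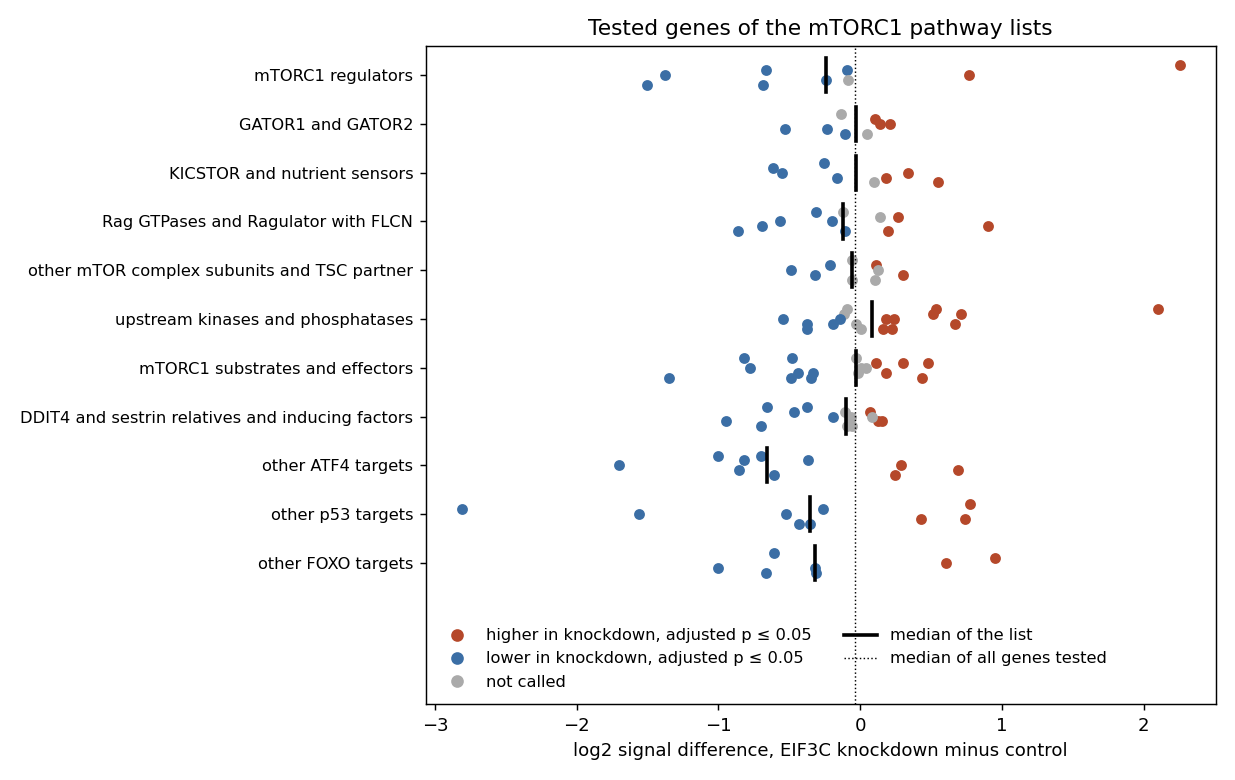
Log2 difference, knockdown minus control, of each tested gene of the member group and of 10 lists of pathway genes, inducing factors and targets. Points are genes, black bars list medians and the dotted line the median of all tested genes, -0.03. The mTORC1 regulators range from -1.50 to 2.25, PRKAA2 stands apart among upstream kinases at 2.10, and other ATF4 targets have the lowest list median at -0.65.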

How the data were processed

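Values were the log2 signals that the authors deposited, 1 column for each of 6 arrays and 49395 probe sets. The submitters' processing notes list MAS5 as a tool, but neither a version nor a background correction or summarisation step is given in the sources used here. Whether MAS5 made these values is uncertain. Values of 1.95 to 14.1 pointed to a log2 scale. Array medians were nearly equal, so signals were used as deposited. A change shared by all genes cannot be measured.

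Gene names came from the platform annotation, and a match by Entrez ID to RefSeq changed 0 symbols. Each gene was taken at its brightest probe set. The lowest 25% of genes by mean were left out, leaving 13599. Groups were compared with limma 3.58.1 in R 4.3.3 (lmFit, eBayes with intensity trend, group as the only term, Benjamini-Hochberg). Single probe sets were fitted unfiltered, with all 49293 human probe sets. The test was checked on simulated data. The members and lists were chosen with earlier results of these data known. Named beside the members were, per list, up to 4 called genes with the largest absolute difference, and the 3 genes most like the members with the largest rise and fall. Also named were the rises among ATF4 targets and among the inducing factors, and ATF4 and DDIT3. The number of arrays limits the precision. Alternatives covered filters, normalization, probe set choice, eBayes settings, array weights, a replicate block and leaving out single arrays.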

Additional observations from a re-analysis of the deposited data

How the results depend on the processing

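Under 16 alternative settings of the fit, DDIT4, SESN1, SESN2, RHEBL1, TSC1, MTOR and RPTOR kept their direction and passed each time. Their log2 differences ranged from -1.55 to -1.49 for DDIT4, -1.43 to -1.31 for SESN2, -0.27 to -0.18 for SESN1, 2.15 to 2.36 for RHEBL1, -0.74 to -0.26 for TSC1, 0.43 to 0.79 for MTOR and -0.78 to -0.17 for RPTOR. With each array left out in turn, 2 members were higher and 6 lower every time. Single probe sets opposite in sign to the brightest stood at 0.0605 (RHEB), 0.106 (TSC1), -0.0509 (MTOR) and 0.0357 (RPTOR), none of them called, and NPRL3 turned to -0.17 with the mean of its probe sets. Of the genes in all the lists together, 34 to 37 were higher and 50 to 55 lower with an array left out. The other settings gave 30 to 38 higher and 45 to 59 lower. Among lists, 1 other mTOR complex gene was higher with quantile normalization, the mean of probe sets, no intensity trend, without knockdown replicate 1 and with probe sets ending in x or s left out. The list of DDIT4 relatives and inducing factors had 1 rise under quantile normalization, no trend and that probe set choice. Leaving out those probe sets also left 3 higher substrates and lost the calls of NPRL2 and SEC13. The nutrient sensors had 1 fall with the lowest 50% left out, and the Rag list 1 rise with the mean of probe sets. NPRL3 did not pass without knockdown replicate 1 or control replicate 3. Leave-one-out ranges were 2.24 to 2.43 for RHEBL1 minus RHEB, 1.11 to 1.19 for SESN1 minus SESN2, -0.60 to -0.58 for TSC1 minus TSC2 and 1.35 to 1.52 for MTOR minus RPTOR, but the mean of probe sets gave -0.11 for TSC1 minus TSC2 and 0.61 for MTOR minus RPTOR. That mean also moved SEH1L to -0.08, LARS1 to 0.13, SAMTOR to 0.35, CEBPG to -0.51, FOXO1 to -0.37, TP53INP1 to -0.90 and CCNG2 to -0.37. The cause of these shifts was not tested.

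Replicate numbers are shared between the groups, and same-numbered samples correlated at 0.08, 0.13 and 0.23 in their deviations from group means. Samples numbered 2 and those numbered 3 were each other's best match, but those numbered 1 were not. The numbers were therefore not taken as pairs in the main fit, and whether same-numbered samples shared a batch was not tested. With the replicate block, 2 members were higher and 6 lower, and 9307 genes were called in all. Signals near the floor limit SESN3 and the dim probe sets.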
